A study of Mus musculus with 2 samples.

Results

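Ret, Pdk1 and Lrrfip1 are 3 genes of the 42422 in a table of counts from foetal mouse germ cells, and were chosen by their values at 24 h, since each was lower both with an inhibitor of the FGF receptors and with an inhibitor of MEK1/2. The values that chose them are those of the 24 h inhibitor and 24 h DMSO libraries, so their differences there are given as a description, without a test. All 3 passed the filter on low counts, which left 15252 genes. In the libraries that took no part in the choice, Ret and Pdk1 were lower with MEK1/2 inhibition at 72 h, XY germ cells at 72 h had more of all 3 than XX germ cells, and Lrrfip1 alone of the 3 passed the test between the sexes before culture.

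Gonads with the mesonephros attached were taken from mouse embryos at E12.5 and used at once (0 h), or after 24 h or 72 h of culture. Per the study's methods, the mesonephros was cut away after culture and before the cells were sorted. The medium held the vehicle DMSO, or, at 500 nM each, BGJ398/Infigratinib (FGFRi), which inhibits FGF receptors, or PD0325901/Mirdametinib (MEKi), which inhibits MEK1/2. There were 3 XX groups (0 h, 24 h DMSO and 72 h DMSO) and 7 XY groups (0 h, and DMSO, FGFRi and MEKi at both 24 h and 72 h), with 4 libraries each. All embryos carried an Oct4(Pou5f1)-eGFP transgene from 129T2svJ males mated to Swiss females, and no other altered allele is named. Living GFP-positive cells were sorted as germ cells. Several gonads were combined in each library, the inhibitors reached all cells of the gonad, and the gate rests on the transgene, so the germ cells of a library were not exposed to a drug on their own. Libraries were made in 2 pools of 20, and pool 1 held the 0 h groups, XX and XY 24 h DMSO and XY 24 h MEKi. XY 24 h FGFRi and all 72 h groups were in pool 2. Comparisons such as 24 h FGFRi v DMSO, 24 h MEKi v FGFRi, 72 h v 24 h DMSO and 72 h v 0 h therefore also compare the pools, and the pair cannot be told apart.

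Ret encodes a receptor tyrosine kinase. It is activated by GDNF family ligands bound to GFRα co-receptors, signals through adaptors to the RAS-ERK and PI3K pathways, and is known for its part in kidney branching, the enteric nervous system and the self-renewal of spermatogonial stem cells. Pdk1 encodes pyruvate dehydrogenase kinase 1, an enzyme of the mitochondrial matrix that phosphorylates and inactivates the pyruvate dehydrogenase complex, which turns pyruvate into acetyl-CoA. It is a known target of the hypoxia-inducible factor HIF1 and is not the AKT-activating kinase encoded by Pdpk1. Lrrfip1 encodes a protein that binds nucleic acids and the actin regulator Flightless-I, and has been described as a transcriptional repressor and as a cytosolic nucleic acid sensor that acts through β-catenin. ERK1/2, the kinases downstream of MEK1/2, act on many genes through ETS family transcription factors such as ETV1, ETV4 and ETV5.

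In the GENCODE M39 annotation of GRCm39, Ret (ENSMUSG00000030110) lies on the minus strand at chr6:118128706-118174769 and has 2 transcripts. Pdk1 (ENSMUSG00000006494) lies on the plus strand at chr2:71703488-71734202 and has 32 transcripts. Lrrfip1 (ENSMUSG00000026305) lies on the plus strand at chr1:90926445-91058477 and has 70 transcripts, of which 63 start within 500 bases of the canonical start at position 90981177. The annotated genes Gm70624 and Gm70621 overlap Lrrfip1 on the other strand, and the counting used strand. The counts were made at the gene level, so they do not separate the transcripts.

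Total counts ran from 1178953 to 5199153 per library. Levels are CPM, counts divided by the library size after TMM scaling (trimmed mean of M-values) and given per 1e+06, and each group mean is given with its SD over 4 libraries. The germ cell markers Pou5f1, Ddx4, Dazl, Dppa3, Dnd1, Kit, Prdm1 and Tfap2c were detected in every group, with a summed level from 1810 CPM in an XX 72 h library to 5730 CPM in an XY 24 h FGFRi library. In these bulk libraries, fewer cells with a transcript and less transcript per cell cannot be told apart. Libraries of the 2 pools share sample indices in 16 pairs. From Y-linked counts, an estimated 4.2% of the counts of the pool 2 partners appeared in XX 24 h DMSO. The lowest ratio of any gene between partners, an upper limit if the share is the same for every gene, was 3.28% in that group, so the estimate is too high there by this measure. That limit was 2.76% to 5.18% over the pool 1 groups and 0.623% to 9.89% over the pool 2 groups.

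Ret was low in XY germ cells at 0 h and was highest after 24 h in DMSO. The XY 24 h DMSO libraries were at 28.5, 26.0, 36.8 and 31.6 CPM (mean 30.8 ± 4.63, SD, n = 4), against 8.34, 8.82, 1.78 and 7.45 CPM at 0 h. The XY 24 h FGFRi libraries were at 2.60, 0, 2.87 and 0 CPM, and the XY 24 h MEKi libraries at 0.929, 2.12, 4.23 and 1.10 CPM. Every inhibitor library lay below every DMSO library, with group means at 4.45% of DMSO for FGFRi and 6.82% for MEKi. The log2 fold differences that chose Ret were -4.98 (SE 0.618) for FGFRi and -4.03 (SE 0.492) for MEKi, and rest on 8 counts in all in FGFRi and 16 in MEKi.

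Pdk1 differed less between 0 h and 24 h. The XY 0 h libraries were at 124, 111, 94.5 and 117 CPM and the XY 24 h DMSO libraries at 143, 152, 151 and 143 CPM. With FGFRi the 24 h libraries were at 40.8, 22.8, 32.1 and 31.6 CPM and with MEKi at 26.0, 31.9, 44.4 and 29.0 CPM. The inhibitor libraries overlapped each other and lay below all DMSO and all 0 h libraries. The log2 fold differences that chose Pdk1 were -2.22 (SE 0.190) for FGFRi and -2.20 (SE 0.175) for MEKi.

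Lrrfip1 was high in XY germ cells at 0 h (222, 214, 210 and 269 CPM) and after 24 h in DMSO (287, 197, 265 and 272 CPM). The 24 h FGFRi libraries were at 57.3, 57.8, 58.0 and 55.9 CPM and the MEKi libraries at 61.8, 63.2, 94.7 and 46.0 CPM, again all below DMSO. The log2 fold differences that chose Lrrfip1 were -2.19 (SE 0.148) for FGFRi and -2.04 (SE 0.136) for MEKi. For all 3 genes the 24 h MEKi and FGFRi libraries overlapped each other.

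**Figure D1:**
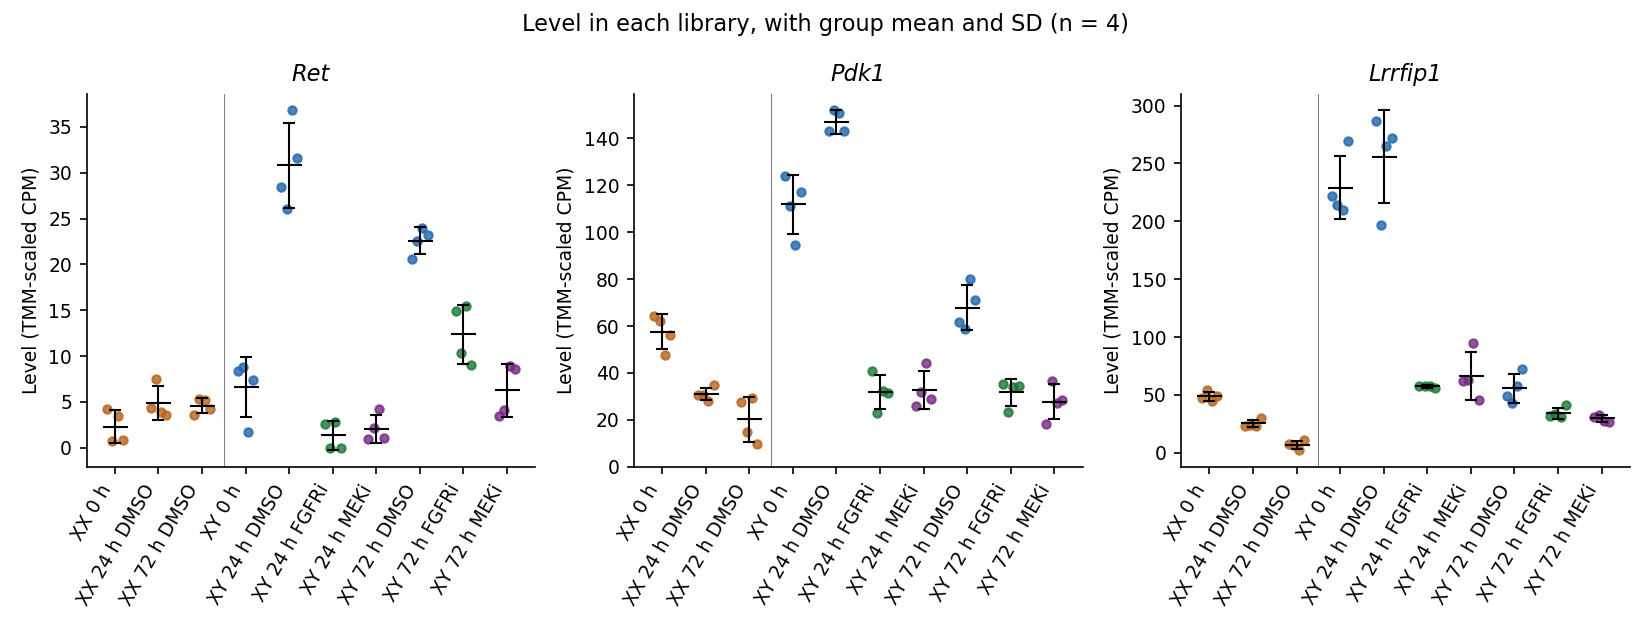
TMM-scaled CPM of Ret, Pdk1 and Lrrfip1 (y axis) in each of the 40 libraries by group (x axis); points are libraries, and bars are the mean and SD of 4. XX groups stand left of the grey line, and XY groups are in blue (0 h and DMSO), green (FGFRi) and purple (MEKi). In each panel XY 24 h DMSO is the highest group, with means of 30.8, 147 and 256 CPM.

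The cut behind the choice was an FDR under 0.05 against a 1.5-fold change in both contrasts, with limma's treat and Benjamini-Hochberg adjustment (FDR). At 24 h, FGFRi lowered 0.131% and raised 0.131% of the 15252 genes, and MEKi lowered 0.111% and raised 0.0525%. The genes lower in both were 6 in number, and besides the 3 described here they were Etv1, Etv4 and Pmaip1. Etv1, an ETS factor, had the highest FDR of the 6 (log2 fold difference -3.51 with FGFRi and -1.92 with MEKi, larger FDR 0.000689). Gmpr, which encodes a GMP reductase, was the first gene outside (-1.65 and -1.60, larger FDR 0.0579). Etv4 had 0 counts in all 4 FGFRi libraries and 1.73 ± 1.32 CPM with MEKi, against 27.9 ± 7.19 CPM in DMSO. Pmaip1, which encodes the pro-apoptotic protein NOXA, was at 7.86 ± 3.06 CPM with FGFRi, 8.51 ± 2.56 CPM with MEKi and 66.5 ± 4.56 CPM in DMSO (all SD, n = 4).

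The 72 h libraries, all in pool 2 and none used in the choice, were tested for whether the genes were still lower with each inhibitor. Ret and Pdk1 were lower with MEKi, and Lrrfip1 did not pass the test against a 1.5-fold change. With MEKi, 5.11% of all genes were called lower and 4.01% higher, and 2 of the 3 genes were called lower.

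Ret was at 20.6, 22.6, 24.0 and 23.2 CPM in XY 72 h DMSO and at 3.47, 4.12, 8.92 and 8.62 CPM in XY 72 h MEKi. The groups did not overlap, and the MEKi mean was 27.8% of the DMSO mean. The log2 fold difference was -1.78 (SE 0.270, FDR 0.000706 by limma), a 3.44-fold fall. Pdk1 was at 61.8, 58.9, 79.9 and 71.0 CPM in DMSO and at 18.4, 36.5, 27.2 and 28.6 CPM with MEKi, again without overlap. Its log2 fold difference was -1.23 (SE 0.163, FDR 0.00274 by limma), a 2.34-fold fall. Lrrfip1 was at 49.2, 43.1, 57.9 and 72.3 CPM in DMSO and at 31.3, 32.9, 27.8 and 26.3 CPM with MEKi. The Lrrfip1 groups did not overlap, but the log2 fold difference of -0.87 (SE 0.161, 95% interval -1.19 to -0.54) did not pass the test against a 1.5-fold change (FDR 0.272 by limma). Against no change, it was called by eBayes (FDR 1.3e-05) and by glmQLFTest (FDR 2.5e-05). Without the filter on low counts, neither Ret (FDR 0.0542) nor Pdk1 (FDR 0.104) passed, at log2 fold differences of -1.71 and -1.17.

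With FGFRi at 72 h none of the 3 genes passed. Ret was at 14.9, 10.3, 15.5 and 9.05 CPM, Pdk1 at 35.2, 23.2, 34.0 and 34.5 CPM and Lrrfip1 at 31.5, 33.6, 30.5 and 41.0 CPM. Every FGFRi library lay below every DMSO library for each gene. The share of all genes whose groups do not overlap was not counted, here or in the other comparisons. The log2 fold differences were -0.82 (SE 0.234) for Ret, -1.11 (SE 0.163) for Pdk1 and -0.68 (SE 0.161) for Lrrfip1, each with FDR 1 by limma. In this comparison 0% of all genes were called lower and 0.00656% higher, and 50 genes were lower at an unadjusted p under 0.05. In both directions together, limma's treat and DESeq2 called 1 gene each, edgeR's glmTreat 2, edgeR's glmQLFTest 24 and limma's eBayes with an observed 1.5-fold change 86. Pdk1 had an unadjusted p of 0.0011 in limma's model over all genes, and was called by glmQLFTest and eBayes. Lrrfip1 was called by eBayes (FDR 0.0178). The 95% intervals of the fold, 0.408 to 0.782 for Ret, 0.369 to 0.581 for Pdk1 and 0.498 to 0.779 for Lrrfip1, all lay below 1.

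Set side by side, the log2 fold differences at 24 h and 72 h were -4.98 and -0.82 for Ret with FGFRi and -4.03 and -1.78 with MEKi. They were -2.22 and -1.11 for Pdk1 with FGFRi and -2.20 and -1.23 with MEKi, and -2.19 and -0.68 for Lrrfip1 with FGFRi and -2.04 and -0.87 with MEKi. The difference between the times was not tested, since the 24 h values chose the genes. The inhibitor contrasts at each time share their DMSO libraries.

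**Figure D2:**
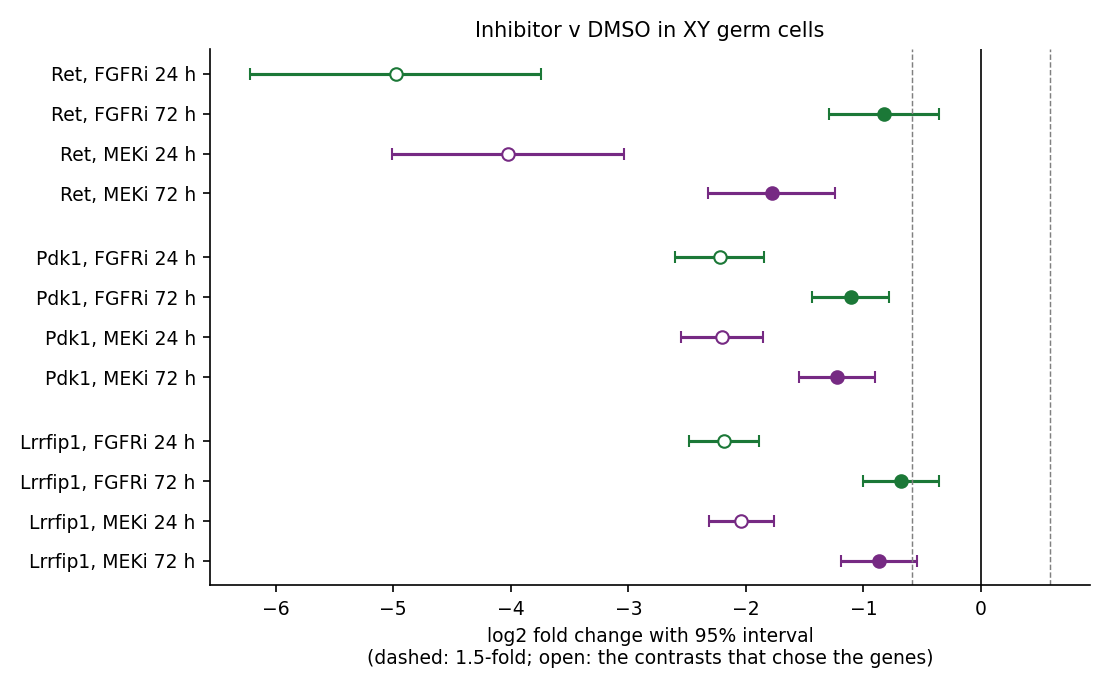
Log2 fold difference of each gene (x axis, with its 95% interval) for FGFRi and MEKi against DMSO in XY germ cells at 24 h and 72 h (y axis). Open points are the contrasts that chose the genes, filled points the 72 h contrasts, and dashed lines a 1.5-fold change. Ret with MEKi at 72 h (-1.78) and Pdk1 with either inhibitor at 72 h (-1.11 and -1.23) have intervals wholly beyond the dashed line, and those of Lrrfip1 cross it.

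MEKi was then compared directly with FGFRi at 72 h. Ret was lower with MEKi in every library, at 6.28 ± 2.89 against 12.4 ± 3.21 CPM, with a log2 fold difference of -0.96 (SE 0.271, FDR 0.394 by limma) that did not pass. For Pdk1 the fold of MEKi over FGFRi was 0.923 (95% interval 0.729 to 1.17) and for Lrrfip1 0.882 (95% interval 0.707 to 1.10). Of all genes, 6.98% were called lower and 5.71% higher in that comparison, and none of the 3 genes was. The eBayes and glmQLFTest alternatives called Ret.

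Ret transcripts are also known from Wolffian duct epithelium and from neural crest derivatives, so markers of these were measured beside it, although the mesonephros was removed and the cells were sorted on GFP. The summed level of 8 Wolffian duct and mesonephric epithelium markers was 21.9 to 24.6 CPM in XY 72 h DMSO, 21.7 to 29.3 CPM with FGFRi, 7.16 to 9.40 CPM with MEKi and 10.0 to 15.5 CPM in XX 72 h DMSO. In XY cells most of that sum was Pax8, at 17.9 CPM in DMSO, 20.6 CPM with FGFRi, 5.18 CPM with MEKi and 0.586 CPM in XX, where Emx2 (8.25 CPM) was the highest of the list, while Pax2, Cdh16, Calb1 and Wnt9b each had group means of at most 0.732 CPM at 72 h. At 24 h the sum was 2.71 to 5.18 CPM in XY DMSO, where Ret was at its highest, 4.02 to 12.7 CPM with FGFRi and 1.06 to 4.38 CPM with MEKi. The 8 neural crest and neuron markers summed to 21.2 to 32.2 CPM in XY 72 h DMSO and 28.3 to 38.8 CPM with MEKi. The 15 gonadal somatic markers summed to 61.2 to 90.4 CPM in XY 72 h DMSO, 50.5 to 74.8 CPM with FGFRi and 75.4 to 144 CPM with MEKi. The 12 blood and endothelial markers, haemoglobins included, summed to 121 to 186 CPM in XY 24 h DMSO, 112 to 124 CPM with FGFRi and 276 to 557 CPM with MEKi. The part of any of these in the levels of Ret, Pdk1 and Lrrfip1 was not tested.

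Besides the inhibitors, the sexes were compared. Before culture, XY germ cells had several times more Lrrfip1 than XX germ cells. It was at 46.9, 54.1, 45.0 and 49.3 CPM in XX and 222, 214, 210 and 269 CPM in XY at 0 h, without overlap. The log2 fold difference was 2.22 (SE 0.133, FDR 1.69e-14 by limma), a 4.66-fold difference (95% interval 3.88 to 5.61). Pdk1 was at 57.6 ± 7.46 CPM in XX and 112 ± 12.6 CPM in XY, also without overlap, and its log2 fold difference of 1.01 (SE 0.141, FDR 0.0621) did not pass. Ret was at 2.32 ± 1.78 CPM in XX and 6.60 ± 3.26 CPM in XY, and the groups overlapped (log2 fold difference 2.04, SE 0.507, FDR 0.0829). Without XY 0 h replicate 5, the library with the fewest counts and only 2 for Ret, both passed (FDR 0.0177 for Ret and 0.0420 for Pdk1). Over all genes, 1.34% were called higher and 1.65% lower in XY, and the 3 genes gave 1 call, Lrrfip1.

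At 72 h in DMSO XY germ cells had more of all 3 genes than XX germ cells, where 22.8% of all genes were called higher and 18.1% lower. Lrrfip1 was at 10.7, 7.74, 6.69 and 2.59 CPM in XX, against 43.1 to 72.3 CPM in XY (log2 fold difference 3.06, SE 0.359, FDR 3.52e-08 by limma). Ret was at 4.28, 3.61, 5.35 and 5.18 CPM in XX, against 20.6 to 24.0 CPM in XY (log2 fold difference 2.25, SE 0.412, FDR 0.000367). Pdk1 was at 9.64, 27.4, 14.7 and 29.1 CPM in XX, against 58.9 to 79.9 CPM in XY (log2 fold difference 1.81, SE 0.233, FDR 8.64e-06). None of the groups overlapped, and the share of all genes of which this holds was not counted. The germ cell markers Pou5f1 (log2 fold difference 2.88), Dppa3 (3.12) and Dnd1 (4.46) were also higher in XY, and the gonadal somatic markers Foxl2, Nr5a1 and Wt1 were lower, 3 of 10 tested. The 15 somatic markers summed to 84.1 to 122 CPM in XX and 61.2 to 90.4 CPM in XY. The part of either in the result was not tested. At 24 h in DMSO, where the XY libraries had chosen the genes, XX germ cells had 4.87 ± 1.82 CPM of Ret, 31.1 ± 2.68 CPM of Pdk1 and 25.3 ± 3.40 CPM of Lrrfip1, all below the XY libraries.

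Whether the gap between XY and XX grew from 0 h to 72 h was added as a test after the data had been seen, since the pools cancel in it. The change in the gap was 0.84 (SE 0.383, FDR 0.486 by limma) on the log2 scale for Lrrfip1, 0.80 (SE 0.273, FDR 0.433) for Pdk1 and 0.21 (SE 0.653, FDR 1) for Ret, and none passed, where 16% of all genes were called higher and 12.9% lower.

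MEKi-treated XY germ cells at 72 h were also set against XX germ cells in DMSO. Lrrfip1 was higher in XY MEKi, with 29.6 ± 3.09 against 6.93 ± 3.36 CPM (log2 fold difference 2.19, SE 0.358, FDR 0.000149 by limma). XY 72 h MEKi shares sample indices with XY 24 h DMSO, where Lrrfip1 had 2712 counts in all, against 454 in XY 72 h MEKi. Removal of shared counts was tried only at 0.623% of the partner, while the limit for this group was 9.89%. Ret (6.28 ± 2.89 against 4.61 ± 0.811 CPM) and Pdk1 (27.7 ± 7.44 against 20.2 ± 9.53 CPM) overlapped between the groups and did not pass. The 95% interval of the fold was 0.755 to 2.52 for Ret and 1.08 to 2.08 for Pdk1. In that comparison 17.2% of all genes were called higher and 12.8% lower.

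**Figure D3:**
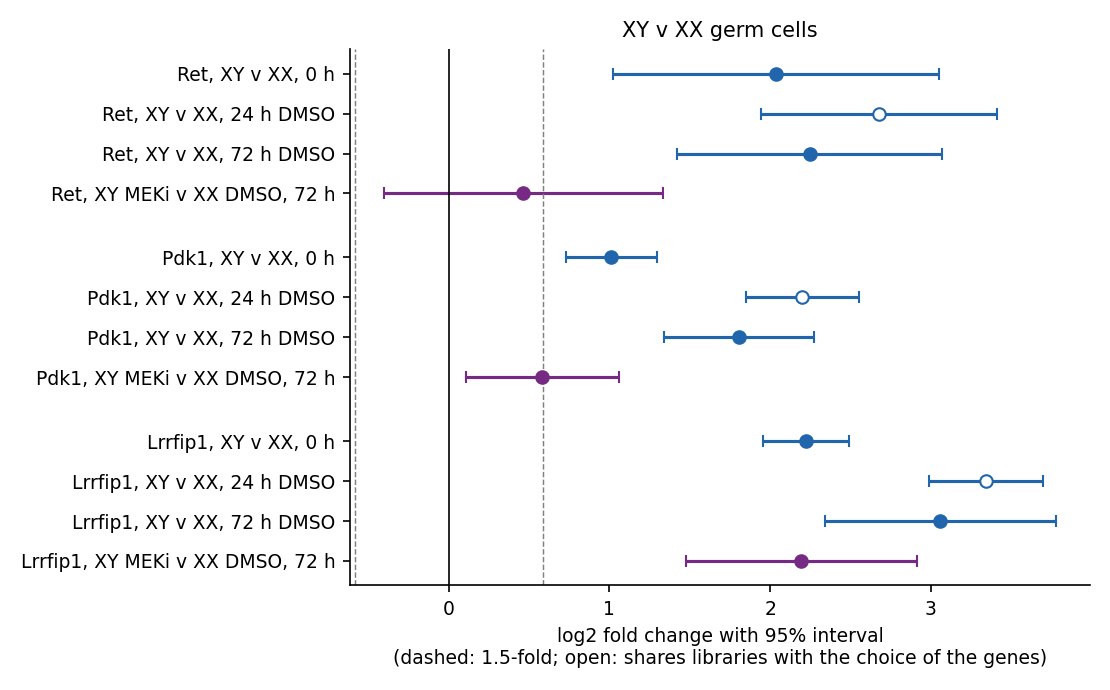
Log2 fold difference of each gene (x axis, with its 95% interval) between XY and XX germ cells at 0 h, at 24 h and 72 h in DMSO, and between XY 72 h MEKi and XX 72 h DMSO (y axis). Open points share libraries with the choice of the genes, and dashed lines mark a 1.5-fold change. Lrrfip1 lies at 2.22, 3.06 and 2.19 in the 3 filled comparisons, and the MEKi points of Ret (0.46) and Pdk1 (0.58) lie lowest for their genes.

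Over time in culture the genes moved in different directions. In XX germ cells, 24 h in DMSO gave log2 fold differences over 0 h of -0.92 (SE 0.190) for Lrrfip1, -0.81 (SE 0.184) for Pdk1 and 1.49 (SE 0.542) for Ret, none of which passed (FDR 0.430, 0.808 and 0.498 by limma), where 0.911% of genes were called lower and 2.32% higher. By 72 h, XX Lrrfip1 was lower than at 0 h (log2 fold difference -2.93, SE 0.357, FDR 9.66e-08) and so was Pdk1 (-1.55, SE 0.231, FDR 0.000265). Ret was not called (1.45, SE 0.566, FDR 0.151), and 18.4% of all genes were called lower and 18.8% higher. In that comparison 6 of the 8 germ cell markers were lower (median -3.47), and 4 of 10 tested somatic markers, Foxl2, Nr2f2, Gata4 and Wt1, were called higher (median 1.37). Foxl2 and Gata4 passed the filter on low counts through XX 72 h DMSO, where they were high, so their calls support nothing further. The part of the markers in the result was not tested. In XY germ cells at 72 h in DMSO, Lrrfip1 was lower than at 0 h (-2.09, SE 0.139, FDR 1.32e-13), Ret was higher (1.66, SE 0.325, FDR 0.00329) and Pdk1 did not pass (-0.75, SE 0.145, FDR 0.282). There 15.2% of all genes were called lower and 20.2% higher. Of the 8 germ cell markers 3 were lower and 2 higher, and of 10 tested somatic markers 2, Pdgfra and Fst, were higher, where DESeq2 called 0. The Wolffian duct markers summed to 3.92 to 8.82 CPM in XY 0 h and 21.9 to 24.6 CPM in XY 72 h DMSO. The part of these markers in the result was not tested. The 72 h and 0 h groups were in different pools.

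In the order of mean levels, XY 24 h DMSO was first for each gene. The order holds groups of both pools, so a step between groups of different pools also compares the pools. For Ret the order went on with XY 72 h DMSO and XY 72 h FGFRi, each step larger than the summed SDs, and no neighbouring groups from XY 72 h FGFRi downward differed by more than that. For Pdk1, XY 24 h DMSO, XY 0 h and XY 72 h DMSO were separated by more than their spread, and XY 72 h DMSO and XX 0 h were not. XX 0 h stood above XY 24 h MEKi by more than their spread, and the 6 lowest groups, from XY 24 h MEKi at 32.8 CPM to XX 72 h DMSO at 20.2 CPM, were not separated from their neighbours. For Lrrfip1, XY 24 h DMSO and XY 0 h were not separated. They stood 163 CPM above the next group, XY 24 h MEKi at 66.4 CPM, and XX 72 h DMSO was the lowest at 6.93 CPM, separated from XX 24 h DMSO at 25.3 CPM.

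The genes around Ret were examined from a list of GDNF family ligands and receptors. Only 4 of its 10 genes passed the filter. Gdnf, the ligand of GFRα1, had a group mean of at most 1.12 CPM, and Nrtn, which encodes the ligand neurturin, was at 31.4 ± 6.99 CPM in XX cells, against 12.3 ± 2.32 CPM in XY, at 72 h in DMSO (log2 fold difference -1.40, SE 0.241, FDR 0.00238 by limma). The co-receptor genes Gfra1 and Gfra2 were near the floor in most groups and had their highest means in XY 72 h DMSO and FGFRi, through which they passed the filter on low counts, so their values are given without a test. Gfra1 was at 4.67 ± 1.13 CPM in XY 72 h DMSO, 1.75 ± 0.250 CPM with MEKi and 0.554 ± 0.426 CPM in XX 72 h DMSO. Gfra2 was at 5.48 ± 0.544, 1.15 ± 0.335 and 0.569 ± 0.760 CPM in the same groups. At 24 h in XY DMSO, where Ret was highest, Gfra1 was at 0.943 ± 0.600 and Gfra2 at 0.673 ± 0.598 CPM, with group means of at most 1.36 CPM with either inhibitor. A further co-receptor gene, Gfra4, was at 10.8 ± 3.51 CPM there and at 13.4 ± 3.63 CPM in XY 72 h DMSO, and was called in no comparison.

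Of 18 tested adaptors and effectors of RET, 0 were called with either inhibitor at 24 h or with FGFRi at 72 h. With MEKi at 72 h, Grb7, an adaptor that binds the receptor, was the 1 gene of the 18 called, where 5.11% of all genes were lower. It was at 9.44 ± 3.54 CPM in DMSO and 1.78 ± 1.33 CPM with MEKi, and passed the filter through the XY 72 h DMSO and FGFRi groups, where it was high, so the call supports nothing further. In XY v XX at 72 h, 5 were higher (Grb7, Src, Grb10, Dok4 and Nras) and 3 lower, Gab2 and Pik3r1 among them, where 22.8% of all genes were higher and 18.1% lower. The call of Grb7 uses the same high group, so it supports nothing further here either. The median log2 fold difference of the 18 was 0.43, against 0.10 over all genes. Of 12 tested genes known to respond to GDNF and RET, Etv4 and Dusp6 were lower with FGFRi at 24 h, and Etv4 with MEKi, where 0.131% and 0.111% of all genes were lower. DESeq2 called 1 of the 12 with each. With MEKi at 72 h, Etv5 (log2 fold difference -1.26), Id4 (-1.15) and Etv4 (-3.58) were lower and Pou3f1 (1.86) was higher, where 5.11% of all genes were lower and 4.01% higher. The median log2 fold difference of these 12 was -0.53 in that comparison, against 0.01 over all genes.

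ERK feedback and target genes were listed too. They share Etv4, Etv5, Dusp6 and Spry1 with the genes known to respond to GDNF and RET, so the lists are not separate. Of the ERK genes 2, Etv1 and Etv4, are among the 6 genes lower with both inhibitors. Of 13 tested at 24 h, Dusp4, Dusp6, Etv4 and Etv1 were lower with FGFRi, and Etv4 and Etv1 with MEKi, where 0.131% and 0.111% of all genes were lower, and the medians of the list were -1.10 and -0.94 against -0.03 and -0.02 over all genes. At 72 h, 0 of the 13 passed with FGFRi, and Etv5 and Etv4 were lower with MEKi, where 5.11% of all genes were lower, with medians of -0.30 and 0.39. Pmaip1 was also lower with MEKi at 72 h (log2 fold difference -1.86, SE 0.290, FDR 0.000798 by limma), and Etv1 was not called (-1.42, SE 0.673, FDR 0.539). At 0 h, 3 of the 13, Etv1 (log2 fold difference 3.57), Etv4 (1.16) and Spry2 (1.27), were higher in XY and 0 lower, where 1.34% of all genes were higher. There glmTreat called 2 of the 13 and DESeq2 1. Pmaip1 (4.89) was higher too.

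Around Pdk1, none of 13 tested genes of the pyruvate dehydrogenase complex and its regulators was called with either inhibitor at 24 h or with FGFRi at 72 h. Pdk3, a kinase of the same complex, was at 115 ± 14.0 CPM in XY 24 h DMSO, 79.3 ± 7.81 CPM with FGFRi and 83.5 ± 9.80 CPM with MEKi, and did not pass. With MEKi at 72 h, Pdp2, which encodes a phosphatase that reverses the kinases, was lower (log2 fold difference -1.22, SE 0.142, FDR 0.000705 by limma) and Pdha2, a testis form of the E1 alpha subunit, was higher (1.55, SE 0.349, FDR 0.0436), where 5.11% of all genes were lower and 4.01% higher. DESeq2 called 1 of the 13 there. In XY v XX at 72 h, Pdk2 (1.78, FDR 0.0125) and Pdp2 (3.70, FDR 6.78e-13) were higher, and Dld, Mpc1 and Pdha2 were lower, where 22.8% of all genes were higher and 18.1% lower. The median of the list was 0.13 there, against 0.10 over all genes.

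Other known HIF1 targets differed between the sexes at 72 h as Pdk1 did. Of 28 tested, 18 were higher in XY than in XX in DMSO and 0 were lower, where 22.8% of all genes were higher and 18.1% lower, and the median log2 fold difference was 1.72 against 0.10 over all genes. Eno1, a glycolytic enolase, was at 279 ± 18.9 CPM in XY germ cells, against 28.4 ± 5.34 CPM in XX (log2 fold difference 3.32, SE 0.156, FDR 1.18e-21 by limma). The glucose transporter gene Slc2a3 was at 57.6 ± 5.84 and 7.75 ± 1.54 CPM (2.83, SE 0.256, FDR 6.2e-11), and Ldha, which encodes lactate dehydrogenase A, at 102 ± 15.9 and 25.0 ± 6.24 CPM (2.07, SE 0.201, FDR 6.42e-09). The same list had 18 genes lower and 0 higher in XX 72 h DMSO than in XX 0 h, with a median of -1.98, where 18.4% of all genes were lower. There 6 of 8 germ cell markers were lower and 4 of 10 somatic markers higher. Foxl2 and Gata4 among those 4 passed the filter through XX 72 h DMSO, where they were high. The HIF1 list had 8 lower in XX 24 h DMSO than in XX 0 h, where 0.911% of all genes were lower. In XY 72 h DMSO, 9 of the 28 were lower and 3 higher than in XY 0 h, with a median of -0.42, where 15.2% of all genes were lower and 20.2% higher. Several of these genes, Eno1, Ldha, Gapdh, Pgk1, Aldoa, Tpi1, Pkm and Pgam1, have processed pseudogenes, so their counts are less certain.

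With the inhibitors, none of the 28 targets was called at 24 h with either inhibitor, with medians of 0.06 for FGFRi and 0.10 for MEKi, or at 72 h with FGFRi. With MEKi at 72 h, Slc2a3 (log2 fold difference -1.06) and the demethylase gene Kdm3a (-1.24) were lower and Hk2, which encodes a hexokinase, was higher (1.48, SE 0.156, FDR 1.59e-05 by limma), where 5.11% of all genes were lower and 4.01% higher. There eBayes called 11 of the 28 and glmQLFTest 16. XY MEKi germ cells had 15 of the 28 higher and 0 lower than XX DMSO at 72 h, with a median of 1.38 against 0.12 over all genes, of which 17.2% were higher and 12.8% lower. Slc16a3 was among these 15 and not among the 18 of XY v XX in DMSO, and Bnip3l, Pfkl, Kdm3a and Egln3 were among the 18 only. Of 9 tested HIF regulators, 0 were called with FGFRi at either time or with MEKi at 24 h, and Vhl (1.25) and Egln1 (1.25), whose products mark HIF for destruction, were higher with MEKi at 72 h, where 4.01% of all genes were higher. DESeq2 called 0 of the 9 there. Hif1a was at 97.1 ± 16.0 CPM in XY 24 h DMSO, 98.4 ± 19.0 CPM with FGFRi and 114 ± 5.43 CPM with MEKi, and was not called.

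**Figure D4:**
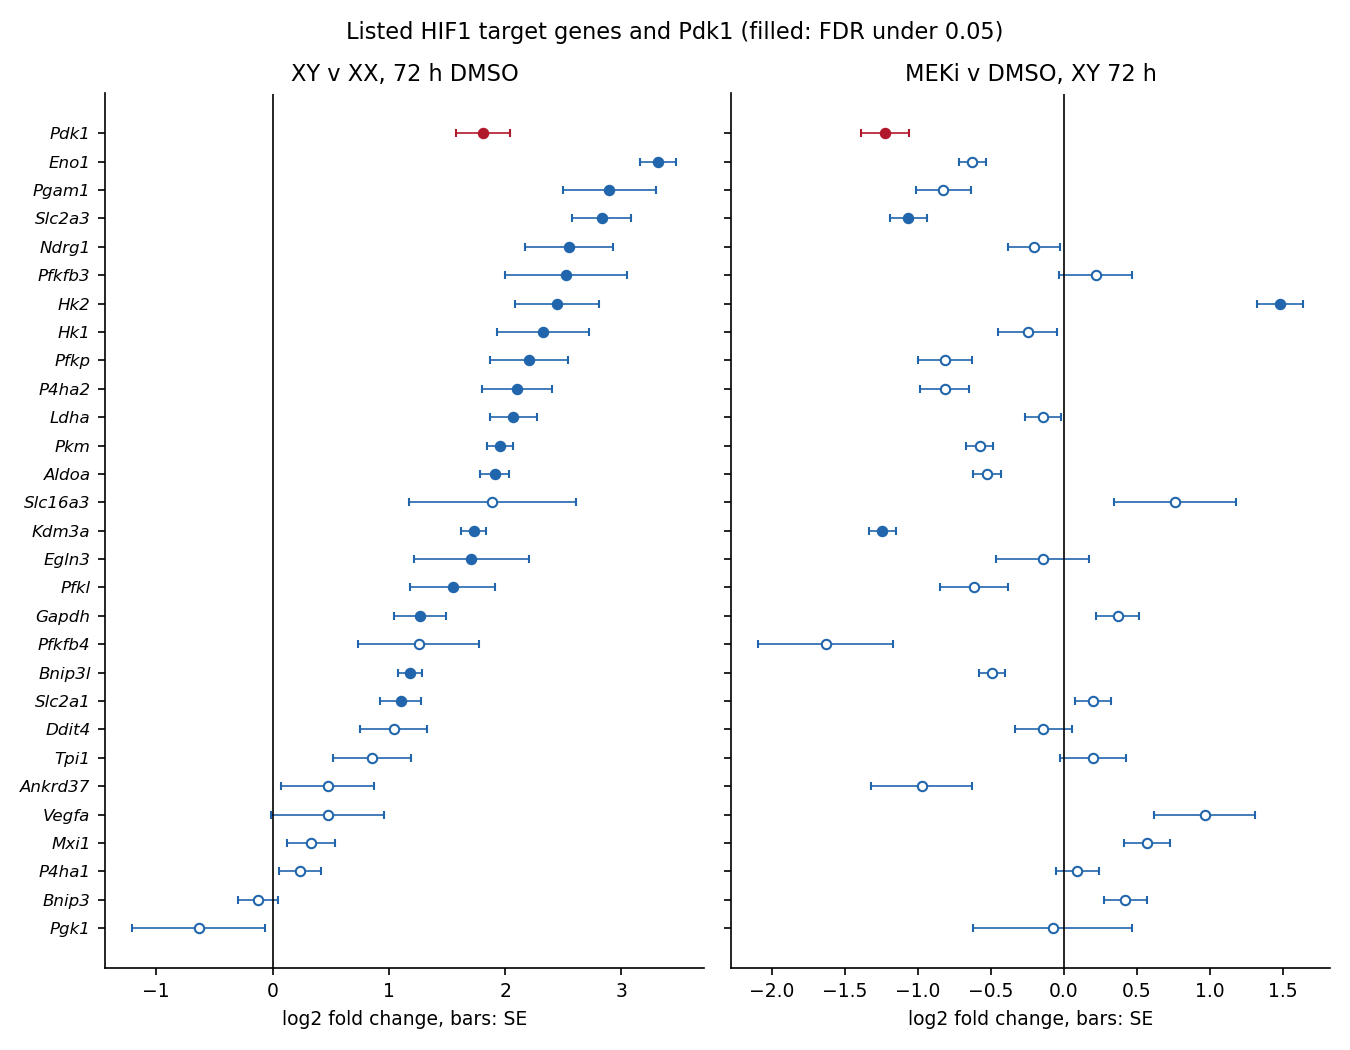
Log2 fold difference (x axes, bars are SE) of 28 HIF1 target genes in blue and of Pdk1 in red (y axis) in XY v XX germ cells at 72 h in DMSO (left) and in MEKi v DMSO in XY germ cells at 72 h (right). Filled points had an FDR under 0.05. On the left 18 blue points are filled, all above 0, and on the right 3 are filled, 2 below 0 and Hk2 above.

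Around Lrrfip1, none of 10 tested partners and reported targets was called with either inhibitor at 24 h or with FGFRi at 72 h. With MEKi at 72 h, Egfr, a reported target, was the 1 gene of the 10 called, where 5.11% of all genes were lower, and DESeq2 called 0. It was at 6.19 ± 0.987 CPM in DMSO and 1.74 ± 0.648 CPM with MEKi, and passed the filter through XY 72 h DMSO, where it was highest, so the call supports nothing further. Lrrfip2, the paralogue, was at 43.9 ± 9.11 CPM in XY cells, against 64.8 ± 6.08 CPM in XX, at 0 h, and 111 ± 28.6 and 122 ± 7.56 CPM at 72 h in DMSO, and was called in neither comparison. Flii, which encodes Flightless-I, was at 50.6 ± 10.8 CPM in XY 24 h DMSO, 50.1 ± 1.98 CPM with FGFRi and 42.1 ± 6.52 CPM with MEKi.

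The counts of 0 in these lists are those of limma's treat, and other tools called few genes more. At an unadjusted p under 0.05, 2 of the 28 HIF1 targets passed with FGFRi at 24 h and 0 with MEKi at 24 h or FGFRi at 72 h, where eBayes called 1. Of the 18 RET adaptors, 1 passed so with MEKi at 24 h, where glmQLFTest also called 1, and eBayes called 1 with FGFRi at 72 h. Of the ERK genes and of the GDNF-RET responsive genes, 1 each passed so with FGFRi at 72 h, where eBayes called 1 ERK gene and 2 GDNF-RET responsive genes, and glmQLFTest 1 of each. For the HIF1 targets with FGFRi at 24 h, eBayes called 3, glmTreat 1, glmQLFTest 3 and DESeq2 0, and with MEKi at 24 h eBayes and glmQLFTest called 2 each and the others 0. Of the 13 pyruvate dehydrogenase genes, glmQLFTest called 2 with each inhibitor at 24 h, and the other tools 0. For the 10 partners and targets of LRRFIP1, glmQLFTest called 1 with FGFRi at 24 h and the other tools 0. The 9 HIF regulators and the 4 tested GDNF ligands and receptors had 0 calls by each of these tools with either inhibitor at 24 h and with FGFRi at 72 h, and 0 at an unadjusted p under 0.05.

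Across the 40 libraries the 3 genes were unequally alike. Pearson's r of log2 CPM was 0.824 for Pdk1 and Lrrfip1, 0.495 for Ret and Pdk1 and 0.255 for Ret and Lrrfip1. These points share groups, pools and depth, and the values are a description. Between XY 0 h and XY 24 h DMSO the group mean of Ret went from 6.60 to 30.8 CPM, that of Pdk1 from 112 to 147 CPM and that of Lrrfip1 from 229 to 256 CPM.

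The 5 genes most like Lrrfip1 were Tcof1 (r = 0.915), Cdc42ep4 (0.900), Tomm40 (0.891), Ftsj3 (0.889) and Ddx56 (0.885). Those most like Pdk1 were Nherf1 (0.824), Lrrfip1 (0.824), Imp4 (0.805), Mkrn1 (0.784) and Msn (0.771). Those most like Ret were Hdac7 (0.742), Gmpr (0.731), Edc3 (0.726), Gm38042 (0.712) and Cd320 (0.689). Over the 10 group means, 1 of the 5 genes stayed among the 5 most alike for Ret, 1 for Pdk1 and 0 for Lrrfip1.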

How the data were processed

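Gene expression was measured in germ cells of 10 groups, with 4 libraries each. The authors deposited whole-number counts per gene. Per the authors' methods, each molecule received a sample index and a unique molecular identifier (UMI) at the poly(A) tail, reads were demultiplexed with scPipe and aligned to GRCm39 with Rsubread, and duplicates of a UMI were counted as 1. Because counting starts at the poly(A) tail, a level is not divided by length. The deposited counts were not normalised. The annotation release and the tool versions of the counting are not given in the sources used here. The submitters' processing notes name limma and edgeR. Ensembl identifiers were matched to GENCODE M39, and every column was used. Somatic libraries were not analysed here.

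Genes were kept with filterByExpr (edgeR 4.0.16, minimum count 10, minimum total 15). As in the study's methods, a model with a mean for each group was fitted to the 40 libraries with voomWithQualityWeights, and treat with a 1.5-fold threshold (limma 3.58.1, R 4.3.3) gave two-sided p-values, which were adjusted over the 15252 genes of each contrast, and genes with an FDR under 0.05 were called. The fit of the study included somatic libraries too. Groups follow the library names. The labels do not say whether libraries of a group came from separate litters, so p-values measure the spread between libraries. Likeness used log2 CPM with a prior count of 2. Some single genes and sequences are not reported here. Alternatives were edgeR's glmTreat and glmQLFTest, DESeq2 1.42.0, limma's eBayes, other scalings, no filter, no quality weights, fewer libraries, a replicate block, removal of index-shared counts and leaving out each library. Index-shared counts were removed at 4.2% of the partner's counts in pool 1 and at 0.623% in pool 2, the lowest limit there. For XY 72 h MEKi the limit was 9.89%, and a larger share was not tried.

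Total counts per library (1178953 to 5199153, median 2135128.5) limit the precision, in particular for Ret, which had 0 to 117 counts per library.

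The genes and the lists were chosen with earlier results of these data known. The rule for the genes named takes the 3 genes, any gene of the lists, Etv1, Etv4 and Pmaip1, and the 5 genes with the highest Pearson correlation with each of the 3 over the 40 libraries.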

Additional observations from a re-analysis of the deposited data

Results flagged for a closer look

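For Pdk1 in XY 72 h FGFRi, the lowest library (replicate 4) stood apart at 23.2 CPM, with the others between 34.0 and 35.2 CPM. For Lrrfip1 in XX 24 h DMSO, the highest library (replicate 9) stood apart at 30.3 CPM, with the others between 23.3 and 24.1 CPM. In both, the gap to the nearest library as a share of the range of the 4 was over Dixon's 95% critical value, and chance gives this in about 1 in 20 groups. There were 30 groups of 4 values to examine.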

How the results depend on the processing

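The direction of the 3 genes was the same under every alternative run for each comparison that was recomputed, except for the change of Ret's gap between XY and XX from 0 h to 72 h (0.21), which became -0.208 without XX 0 h replicate 4 and -0.0234 without XY 0 h replicate 5, and ran up to 0.624 when single libraries were left out. XY v XX at 24 h, XY 24 h DMSO v 0 h and MEKi v FGFRi at 24 h were not recomputed. At 24 h the log2 fold change of Ret ran from -5.61 to -4.34 with FGFRi and from -4.39 to -3.72 with MEKi.

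How many of the 3 genes were called changed as follows. For MEKi v DMSO at 72 h it was 2, 0 with no filter on low counts, and 3 by eBayes and by glmQLFTest, which added Lrrfip1. The same tests added Ret for XX 72 h v 0 h (FDR 0.0219 and 0.0473) and Pdk1 for XY 72 h v 0 h (FDR 1.1e-05 and 0.000133), which made 3 each. By limma's eBayes with an observed 1.5-fold change it rose to 2 for FGFRi v DMSO at 72 h, 1 for MEKi v FGFRi at 72 h, 3 for XY v XX at 0 h, 3 for XX 24 h v 0 h and 1 for the change in the gap between the sexes. By glmQLFTest it was 1, 1, 3, 3 and 2 for the same comparisons, and 2 for XY 72 h MEKi v XX 72 h. For XY v XX at 0 h it was 2 by glmTreat and 2 in a fit of only the libraries compared, and from 1 to 3 when each library was left out. The cause of these changes was not tested. Both eBayes and glmQLFTest test against no change and not against a 1.5-fold change.

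The count of genes called among all genes was highest with those 2 tests, for example 6252 by glmQLFTest and 4748 by eBayes for MEKi v DMSO at 72 h, against 1391. It was 298 without XY 0 h replicate 3 for XY v XX at 0 h, against 457, and 318 without XX 0 h replicate 4 for XX 24 h v 0 h, against 493. It was 24 without XY 24 h DMSO replicate 5 for FGFRi v DMSO at 24 h, against 40, and 65 by glmTreat. For MEKi v DMSO at 24 h it was 25, and 39 by glmTreat. Group levels under other scalings were between 0.927 and 1.11 times those given.

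Replicate numbers are shared between groups, and the libraries were not treated as paired. No comparison had every same-numbered pair correlated above 0.1, but with 1 to 4 pairs each this cannot decide whether the libraries were paired. With a replicate block (correlation -0.0366), 2 of the 3 genes were called for MEKi v DMSO at 72 h and 1 for XY v XX at 0 h, as without it, and genes called for MEKi v DMSO at 72 h went from 1391 to 1349. Ret did not pass the filter on low counts in fits of only the XX libraries compared over time, so those give no value. Depth limits Ret most, at 8 counts over the 4 XY 24 h FGFRi libraries.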
